A study of Arabidopsis thaliana with 9 samples.

Results

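Transcript levels of 10 genes of jasmonate synthesis and response were followed in aerial organs of Arabidopsis thaliana aged 21 days. The genes were taken by identifier from the 33602 gene models of the count tables, and all 10 were present: LOX2, LOX3, AOS and OPR3 of the synthesis pathway, the repressors JAZ1, JAZ5 and JAZ10, and the output genes VSP1, VSP2 and PDF1.2. The study compared wild type (WT), cuc2-3 and CUC2gm-4, all in the Col0 ecotype, with 3 libraries per genotype and no treatment. Plants grew on soil at 21 °C and 65% relative humidity with 8 h of light and 16 h of dark, and the harvest hour was not given in the sources used here. Both mutants are described by the series as knock-outs, and the mutation behind either allele, the number of plants per library and the number of independent lines were not stated further. Because no label tells whether replicates are separate groups of plants, the p-values reflect the spread among these 9 libraries alone, which may be technical.

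Jasmonates are lipid-derived hormones that plants make upon wounding and herbivory and during flower development. Lipoxygenases such as LOX2 oxygenate a fatty acid in the plastid, AOS turns the product into an allene oxide, and OPR3 reduces the cyclised precursor OPDA in the peroxisome. The enzyme JAR1 then couples jasmonic acid to isoleucine, and the conjugate lets the F-box receptor COI1 bind JAZ repressors and send them to degradation. This frees MYC2 and related factors, which switch on wound outputs such as VSP1 and VSP2, the synthesis genes and the JAZ genes themselves. A second branch, shared with ethylene and driven by ERF1 and ORA59, switches on the plant defensin PDF1.2.

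Total counts ran from 17361433 to 27734410 per library, so a count of 3 corresponds to 0.108 to 0.173 CPM (counts scaled to a common library size). CUC2 (AT5G53950), the gene named in the mutants, had 13, 53 and 55 counts in WT, against 38, 11 and 23 for cuc2-3 and 779, 656 and 1062 for CUC2gm-4. For CUC2gm-4 the count of CUC2 goes against a knock-out, and its libraries are referred to by their label only. Leaf genes marked the tissue: RBCS1A, CAB1, LHCB3 and RCA summed to between 25770 and 63660 normalised CPM per library. The flower genes AP1, AP3, PI, AG and SEP3 summed to at most 0.851, with 0 of 5 among the genes tested. Of 6 genes best known from roots 4 were tested, PYK10 with 103 to 182 normalised CPM, SHR with 19.4 to 25.8, SCR with 11.8 to 26.7 and WOX5 with 0.532 to 3.17, while PLT1 and CASP1 lay below the count minimum. The trichome genes GL2, GL3, ATMYB106 and TRY summed to 83.7 to 142.

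The 250 bases before the annotated start of each gene were read from the RefSeq TAIR10.1 genome and annotation, 5′ to 3′ on the gene's strand. The promoters of OPR3 (chr2:2362376-2362625, minus strand), JAZ5 (chr1:5957512-5957761, minus strand) and JAZ10 (chr5:4218536-4218785, plus strand) are shown because these genes moved together over the libraries. That of LOX2 (chr3:16524995-16525244, plus strand) is shown because LOX2 differed between replicate numbers, and that of PDF1.2 (chr5:17907639-17907888, minus strand) because it belongs to the ethylene branch. Capitals mark CACGTG (the G-box, the core site of MYC2), CACATG (a related E-box) and GCCGCC (the GCC-box, the core of ERF sites), each searched on both strands, so that CACATG on the other strand reads CATGTG.
OPR3: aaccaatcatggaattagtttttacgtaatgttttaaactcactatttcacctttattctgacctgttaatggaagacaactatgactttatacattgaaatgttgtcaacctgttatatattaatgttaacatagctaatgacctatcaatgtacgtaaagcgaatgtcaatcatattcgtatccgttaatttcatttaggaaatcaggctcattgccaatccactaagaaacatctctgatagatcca
JAZ5: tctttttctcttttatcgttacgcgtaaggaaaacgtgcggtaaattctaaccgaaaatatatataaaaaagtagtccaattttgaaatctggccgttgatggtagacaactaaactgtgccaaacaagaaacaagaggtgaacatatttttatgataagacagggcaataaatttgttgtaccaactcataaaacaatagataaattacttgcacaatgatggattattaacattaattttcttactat
JAZ10: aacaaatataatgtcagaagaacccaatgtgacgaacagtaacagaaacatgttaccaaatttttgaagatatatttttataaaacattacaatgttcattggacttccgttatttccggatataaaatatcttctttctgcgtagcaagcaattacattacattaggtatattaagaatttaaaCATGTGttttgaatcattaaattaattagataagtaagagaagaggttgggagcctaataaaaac
LOX2: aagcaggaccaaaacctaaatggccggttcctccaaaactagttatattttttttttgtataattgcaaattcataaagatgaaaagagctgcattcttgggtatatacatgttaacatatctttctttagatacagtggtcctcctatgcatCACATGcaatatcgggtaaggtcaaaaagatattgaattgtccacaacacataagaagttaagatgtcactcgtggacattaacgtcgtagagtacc
PDF1.2: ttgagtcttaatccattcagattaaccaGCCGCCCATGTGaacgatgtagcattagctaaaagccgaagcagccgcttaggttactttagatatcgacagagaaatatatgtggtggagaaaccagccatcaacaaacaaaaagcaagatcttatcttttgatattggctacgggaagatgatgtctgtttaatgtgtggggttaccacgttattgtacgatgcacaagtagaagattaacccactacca
None of the 3 motifs lies in the OPR3 or JAZ5 window. JAZ10 and LOX2 hold CACATG in single copy, starting 65 and 97 bases before the gene. PDF1.2 holds GCCGCC 222 bases and CACATG 216 bases before its start, side by side without overlap. Over all 10 genes CACATG was present in 4 promoters (also in LOX3), against 11.1% of 27443 protein-coding genes. CACGTG was present in 1, that of AOS at 6 bases before the start, against 6.49%, and GCCGCC in 1 against 1.87%. Of 64 other jasmonate pathway genes 9 held CACGTG (14.1%), 9 held CACATG (14.1%) and 2 held GCCGCC (3.12%). These matches describe letters in the window and are not evidence of binding.

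Levels differed widely among the 10 genes. On the scale of normalised CPM per kb of gene model, WT held 126 ± 91.6 for LOX2 (SD, n = 3), 67.9 ± 16.5 for OPR3 and 54.8 ± 14.2 for AOS. VSP2 followed at 33.5 ± 2.41, and JAZ1, VSP1, JAZ5 and JAZ10 lay at 18.2 ± 9.37, 14.1 ± 4.65, 11.0 ± 3.35 and 10.1 ± 3.62. LOX3 at 4.07 ± 2.01 and PDF1.2 at 1.81 ± 1.77 were the lowest. The mean ± SD ranges of neighbours in this order overlapped, except between AOS and VSP2, between VSP2 and JAZ1 and between JAZ10 and LOX3. In these whole-shoot samples, fewer cells of a type and less RNA per cell cannot be told apart.

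LOX2 (AT3G45140, chromosome 3, 16525245 to 16529352, plus strand, TAIR10.1), the main lipoxygenase of wounded leaves, was the most abundant per kb and varied strongly within a genotype. In replicates 1, 2 and 3 it had 629, 336 and 111 normalised CPM in WT, against 338, 382 and 131 for cuc2-3 and 313, 231 and 174 for CUC2gm-4. The 3 libraries numbered 3 were the lowest of all 9, and the genotypes overlapped. LOX3 (AT1G17420, chromosome 1, 5977323 to 5981521, plus strand), a lipoxygenase known for its part in fertility together with LOX4, had 18.9, 8.80 and 8.41 in WT, against 14.3, 20 and 7.98 for cuc2-3 and 8.87, 9.76 and 11.6 for CUC2gm-4. WT 1 and cuc2-3 2 stood above the other 7 libraries with cuc2-3 1 next. AOS (AT5G42650, chromosome 5, 17097564 to 17099595, minus strand) had 120, 105 and 70.6 in WT, against 94.7, 118 and 63.3 for cuc2-3 and 57.5, 95.3 and 91.6 for CUC2gm-4. Its lowest library was CUC2gm-4 1, and it varied only 2.09-fold between extremes. OPR3 (AT2G06050, chromosome 2, 2359114 to 2362375, minus strand), which is required for fertile pollen, had 83.8, 93.1 and 131 in WT, against 90.1, 117 and 104 for cuc2-3 and 59.3, 77.5 and 184 for CUC2gm-4. The libraries labelled CUC2gm-4 held both its lowest and its highest value.

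The JAZ proteins repress MYC2, and JAZ genes are themselves early jasmonate targets. JAZ1 (AT1G19180, chromosome 1, 6621777 to 6623668, plus strand) had 19.7, 38.2 and 14.5 normalised CPM in WT, against 23.1, 26.4 and 10.1 for cuc2-3 and 5.62, 16.4 and 16.7 for CUC2gm-4. WT 2 was highest and CUC2gm-4 1 lowest, 6.80-fold apart. JAZ5 (AT1G17380, chromosome 1, 5955155 to 5957511, minus strand) had 8.54, 12.7 and 16.1 in WT, against 13, 21.6 and 14.4 for cuc2-3 and 4.78, 11.4 and 30.1 for CUC2gm-4. JAZ10 (AT5G13220, chromosome 5, 4218786 to 4221077, plus strand), whose splice forms include ones that resist degradation, had 6.92, 9.86 and 14.2 in WT, against 7.70, 13.2 and 11.0 for cuc2-3 and 5.42, 7.57 and 31.7 for CUC2gm-4. CUC2gm-4 3 was the highest and CUC2gm-4 1 the lowest of the 9 libraries for both JAZ5 and JAZ10, 6.31-fold and 5.86-fold apart. JAZ10 shares 71 bp with AT5G02045 on the opposite strand, and the strand setting of the counting was not given in the sources used here.

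The output genes are the readout of both branches. VSP1 (AT5G24780, chromosome 5, 8507590 to 8509201, minus strand) and VSP2 (AT5G24770, chromosome 5, 8500468 to 8502224, minus strand) encode related vegetative storage proteins, VSP2 being an acid phosphatase with anti-insect activity. The genes lie 5365 bp apart with 1 annotated gene between them. VSP1 had 20.7, 11.1 and 13.6 normalised CPM in WT, against 10.5, 26.4 and 7.45 for cuc2-3 and 24.2, 26.0 and 10.1 for CUC2gm-4. VSP2 had 50.5, 48.1 and 43.7 in WT, against 31.8, 45.2 and 34 for cuc2-3 and 51.5, 38.3 and 58.7 for CUC2gm-4. VSP1 was at its highest in cuc2-3 2 and CUC2gm-4 2 and at its lowest in cuc2-3 3, a 3.54-fold range, while VSP2 was the steadiest of the 10 genes with a 1.85-fold range. Their coding sequences are 89.5% identical and share 5 of 764 stretches of 50 bases. PDF1.2 (AT5G44420, chromosome 5, 17906968 to 17907638, minus strand) was near the count floor, with 27, 8 and 6 counts in WT, against 6, 32 and 1 for cuc2-3 and 6, 22 and 3 for CUC2gm-4. Only WT 1, cuc2-3 2 and CUC2gm-4 2 reached 1 CPM, so PDF1.2 passed the count minimum through these 3 libraries of different genotypes. Its copies PDF1.2b (AT2G26020), PDF1.2c (AT5G44430) and PDF1.3 (AT2G26010), 91.4% to 93.8% identical to it, had 0 to 16 counts each in a library, and all were below the minimum. The 4 copies together had 44, 18 and 17 counts in WT, against 14, 74 and 8 for cuc2-3 and 8, 34 and 6 for CUC2gm-4. Reads with equally good placements were removed before counting, so reads of stretches that copies share are missing from these sums.

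**Figure D1:**
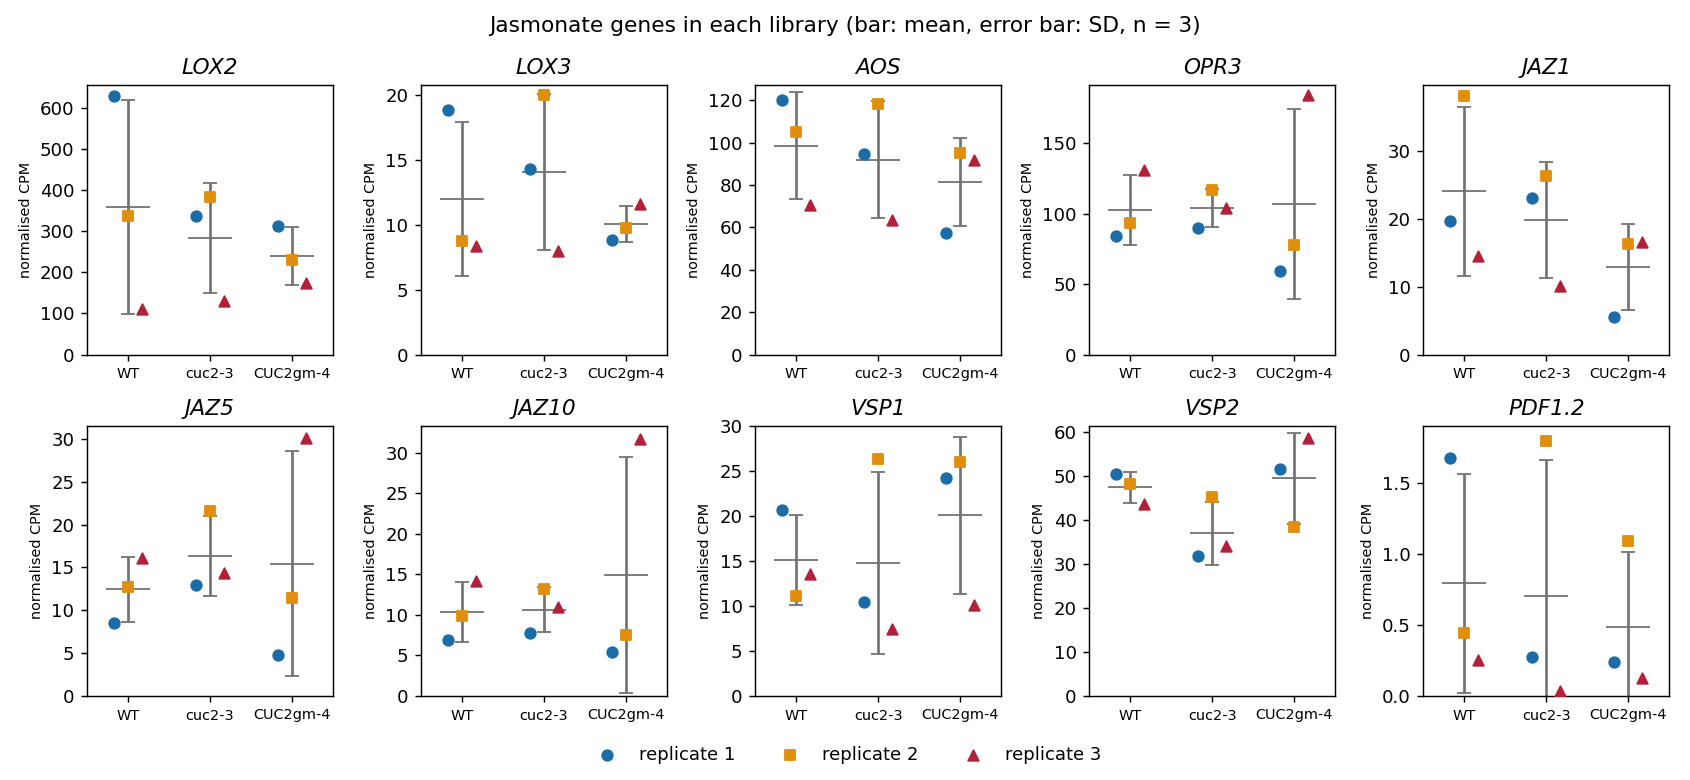
Normalised CPM (vertical axis, from 0) of the 10 jasmonate genes in WT, cuc2-3 and CUC2gm-4, with circles, squares and triangles for replicates 1, 2 and 3 and grey bars for the mean and SD of 3 libraries (cut at 0 for PDF1.2). The genotypes overlap in all 10 panels, and the triangles of LOX2 lie at 111 to 174, below all other libraries.

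The study is on CUC transcription factors in leaf development, and the genotype comparisons ask which genes differ between the mutants and WT. By the quasi-likelihood test of edgeR, adjusted after Benjamini and Hochberg over 18291 genes, 0 of 10 members passed for cuc2-3 against WT, where 0.0219% of all genes did. For CUC2gm-4 against WT 0 of 10 passed against 0.0164% of all genes, and for CUC2gm-4 against cuc2-3 0 of 10 against 0.0164%. In edgeR an unadjusted p below 0.05 was reached by 0 of 10 members in each comparison, against 1.96%, 6.48% and 3.73% of all genes. DESeq2 called 0 of 10 as well, against 0.0766%, 0.443% and 0.137%, with an unadjusted p of 0.0496 for JAZ1 in CUC2gm-4 against WT and 0.0487 for VSP2 in CUC2gm-4 against cuc2-3. The 2 groups did not separate for any member in any comparison, and they did for 5.52%, 11.6% and 10% of all genes. With only 10 members, none called and none separated is close to these shares of all genes. With the replicate number as a block 0 of 10 passed in edgeR, against 0.0219%, 0.191% and 0.0383% of all genes, and 0 of 10 had an unadjusted p below 0.05, against 3.73%, 10.9% and 7.39%.

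Between cuc2-3 and WT the log2 fold changes of the members lay between -0.36 (VSP2) and 0.39 (JAZ5), with a median of -0.073 beside -0.0077 over all genes tested. VSP2 was lower in cuc2-3 than in the same-numbered WT library in 3 of 3 pairs (log2 fold change -0.36, SE 0.19, adjusted p = 1 in edgeR). Other listed genes were too, among them AOC2, ILL6 and ST2A, and the share of all genes was not computed. For LOX2, the most abundant member, the difference was -0.34 (SE 0.54). With the replicate number as a block it was -0.19 (SE 0.28), and that of VSP2 was -0.36 (SE 0.20).

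Between CUC2gm-4 and WT the values ran from -0.91 (JAZ1) to 0.52 (JAZ10), with a median of -0.095 beside -0.0025 over all genes. JAZ1 had the smallest p of the members, with a log2 fold change of -0.91 (SE 0.48) and an adjusted p of 0.795 in edgeR. It was lower in 2 of 3 same-numbered pairs and not lower in CUC2gm-4 3. JAZ5 (0.31, SE 0.52) and JAZ10 (0.52, SE 0.56) took the opposite sign without CUC2gm-4 3, at -0.63 and -0.68. LOX2 was at -0.58 (SE 0.54) and 0.086 without WT 1. Against cuc2-3 the values for CUC2gm-4 ran from -0.62 (JAZ1, SE 0.48) to 0.49 (JAZ10, SE 0.56; -0.71 without CUC2gm-4 3), with a median of -0.13 beside 0.00044. VSP2 was at 0.42 (SE 0.19) there, with an adjusted p of 1 in edgeR. With the replicate number as a block, values against WT were -0.82 (SE 0.39) for JAZ1 and 0.11 (SE 0.37) for JAZ5. Those for JAZ10 and LOX2 were 0.28 (SE 0.36) and -0.31 (SE 0.28). Against cuc2-3 the blocked values were -0.60 (SE 0.39) for JAZ1, 0.16 (SE 0.37) for JAZ10 and 0.42 (SE 0.20) for VSP2. The comparisons share groups, so their values are not independent of each other.

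**Figure D2:**
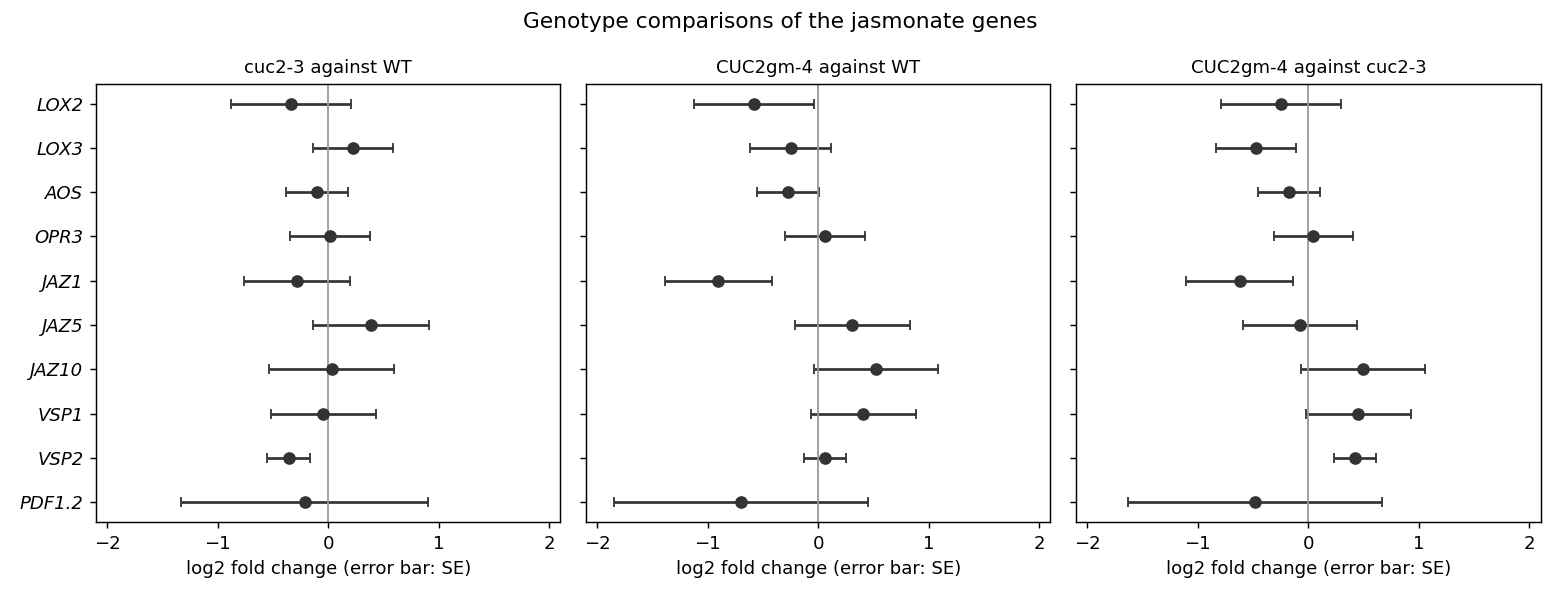
Log2 fold change (horizontal axis) of the 10 genes in cuc2-3 against WT, CUC2gm-4 against WT and CUC2gm-4 against cuc2-3. Values and error bars (SE) are from the edgeR fit without the replicate number as a block. All values lie between -0.91 and 0.52, and PDF1.2 has the widest error bars, with an SE of up to 1.15.

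The other jasmonate genes gave the same count over genotypes. Of 64 further pathway genes 45 were tested, and 0 passed in any of the 3 comparisons in edgeR. At an unadjusted p below 0.05 there were 0, 3 and 2, where 1.96%, 6.48% and 3.73% of all genes were. Values for the hub of the pathway lay near 0. COI1 differed by 0.075 (SE 0.15) in cuc2-3 and 0.092 (SE 0.15) in CUC2gm-4 against WT on the log2 scale, JAR1 by -0.015 (SE 0.15) and 0.034 (SE 0.15), and MYC2 by 0.14 (SE 0.26) and -0.15 (SE 0.26), none past the threshold in edgeR. COI1 had 18.4 to 23.6 normalised CPM and JAR1 35.5 to 46.1 over the 9 libraries, while MYC2 ran from 55.3 in CUC2gm-4 1 to 116 in CUC2gm-4 3.

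PR4 (AT3G04720), a chitin-binding defence protein of the ethylene-jasmonate branch, was lower in each library labelled CUC2gm-4 than in the others of its number. It had 40.6, 85.7 and 36.1 normalised CPM in WT, against 33.9, 85.1 and 45.9 for cuc2-3 and 16.5, 42.2 and 16.9 for CUC2gm-4. The library labelled CUC2gm-4 was thus the lowest of its number in 3 of 3 sets. The libraries numbered 2 were the highest of their genotype in 3 of 3. The share of all genes with either order was not computed. The genotypes overlapped, with 42.2 in CUC2gm-4 2 against 40.6 in WT 1 and 36.1 in WT 3. Without the block the log2 fold change from WT was -1.11 (SE 0.47, adjusted p = 0.756 in edgeR), and that from cuc2-3 was -1.13 (SE 0.47, adjusted p = 1). With the replicate number as a block PR4 fell, by edgeR, with -1.14 (SE 0.16, adjusted p = 0.0205) relative to WT and -1.17 (SE 0.16, adjusted p = 0.0327) relative to cuc2-3. PR4 was the only one of the 45 tested genes to pass with the block. Over all genes 0.191% passed with the block in CUC2gm-4 against WT and 0.0383% in CUC2gm-4 against cuc2-3. With single libraries left out the value without the block ran from -1.69 to -0.61 relative to WT and from -1.71 to -0.67 relative to cuc2-3, lowest without CUC2gm-4 2 and nearest 0 without WT 2 and cuc2-3 2. The blocked value ran from -1.26 to -1.01, and its adjusted p reached 0.173 against WT (without CUC2gm-4 1) and 0.392 against cuc2-3 (without cuc2-3 3), and the call was lost in 5 and 6 of 9 such fits.

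CLH1 (AT1G19670), a chlorophyllase that is induced by jasmonate and the bacterial mimic coronatine, had 112, 84.4 and 77.3 normalised CPM in WT, against 98.2, 115 and 68.2 for cuc2-3 and 49.2, 43.4 and 51.8 for CUC2gm-4. All 3 libraries labelled CUC2gm-4 lay below the other 6, as they did for the listed genes PYK10, LHCB3 and WOX5. In either direction, CUC2gm-4 separated from WT for 11.6% of all genes and from cuc2-3 for 10%. The share that separated from both was not computed. Relative to WT the log2 fold change of CLH1 was -0.92 (SE 0.21, adjusted p = 0.459 in edgeR), and relative to cuc2-3 it was -0.96 (SE 0.21, adjusted p = 0.748). DESeq2 called it in both (adjusted p = 0.0214 and 0.0325), and edgeR with the block did not (0.109 and 0.296). CLH1 was named after its values were seen. Other lists differed in the same comparison: in CUC2gm-4 against WT the median log2 fold change was -1.16 over 12 touch and immediate early genes, of which 7 were lower at an unadjusted p below 0.05 (6.48% of all genes in either direction) and 1, RHL41, passed with the block (0.191%). It was -0.43 over 4 leaf genes, of which 0 passed and 1 was lower at that level. Of 4 tested root genes WOX5 (-1.45, SE 0.35) and PYK10 (-0.51, SE 0.18) were lower and SHR (0.33, SE 0.13) higher at an unadjusted p below 0.05, and 0 passed in edgeR, while DESeq2 called WOX5 (adjusted p = 0.0453). The part of these in the values of PR4 and CLH1 was not tested.

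LOX2 differed between replicate numbers. The labels number the libraries of each genotype 1 to 3 without stating the meaning of a number. In edgeR's quasi-likelihood test of the number (2 degrees of freedom, genotype in the model) 1 of 10 members passed after Benjamini-Hochberg adjustment, where 4.36% of all genes did, and 6 of 10 had an unadjusted p below 0.05, where 23.9% did. LOX2, the member that passed, was lowest in the library numbered 3 of every genotype, as 8.98% of all genes were, and its 3 libraries numbered 3 lay below the other 6, as for 4.22% of all genes. Libraries numbered 3 were below those numbered 1 by a log2 difference of -1.56 (SE 0.29) and below those numbered 2 by -1.15 (SE 0.28), with an adjusted p of 0.0306. LOX2 lost the call without WT 2 (adjusted p = 0.0502), WT 3 (0.0842), cuc2-3 3 (0.119) or CUC2gm-4 1 (0.0687).

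OPR3, JAZ5 and JAZ10 leaned the other way and did not pass. JAZ10 differed by 1.46 (SE 0.37) between numbers 3 and 1 and by 0.85 (SE 0.36) between 3 and 2 on the log2 scale (adjusted p = 0.0805 in edgeR). JAZ5 differed by 1.28 (SE 0.38) between numbers 3 and 1 (adjusted p = 0.129) and OPR3 by 0.86 (SE 0.25, adjusted p = 0.113). In WT and CUC2gm-4 the library numbered 3 was the highest of its genotype for all 3 genes, and in cuc2-3 it was the one numbered 2. JAZ1 did not share this lean, with -0.83 (SE 0.38) between numbers 3 and 2 (adjusted p = 0.261). Between numbers 3 and 1 it differed by -0.0435 (SE 0.39). AOS and LOX3 differed by -0.48 (SE 0.24) and -0.39 (SE 0.33) between numbers 3 and 2, and neither passed. For JAZ1, AOS and LOX3 the library numbered 3 was the lowest in 2 of 3 genotypes. VSP1 differed by -1.05 (SE 0.36) between numbers 3 and 2 (adjusted p = 0.175), and its library numbered 3 was the lowest in 2 of 3 genotypes. PDF1.2 was lowest in the library numbered 3 in 3 of 3 (adjusted p = 0.116). VSP2 differed by 0.031 (SE 0.20) between 3 and 1 (adjusted p = 0.993). No member was highest in the library numbered 3 of all 3 genotypes.

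Among the 45 other pathway genes tested, 9 passed by replicate number, where 4.36% of all genes did, 7 of them higher in the libraries numbered 3 than in the mean of the others and 2 lower. Over all 18291 genes 429 passed with a higher and 368 with a lower value in number 3. Of 10 JAZ genes outside the members 7 were tested and 4 passed, all higher in number 3: JAZ9, JAZ3, JAZ6 and JAZ12. JAZ2, JAZ7 and JAZ11 did not pass (adjusted p = 0.324, 0.582 and 0.206), and JAZ7 had a log2 difference of -0.22 (SE 0.69) between numbers 3 and 1. JAZ9 had 59.9, 68.3 and 243 normalised CPM in WT, against 109, 90.1 and 136 for cuc2-3 and 54.6, 66.9 and 234 for CUC2gm-4, a log2 difference of 1.5 between number 3 and the mean of 1 and 2 (adjusted p = 0.0183 in edgeR). All 3 libraries numbered 3 lay above the other 6 for JAZ9, JAZ3, JAZ6 and JAZ12, as for 6.06% of all genes. The gap was narrow for JAZ6 (63.3 normalised CPM in cuc2-3 3 against 63.0 in cuc2-3 2) and JAZ3 (17.9 in cuc2-3 3 against 17.1 in WT 2). JAZ3, JAZ6 and JAZ12 differed by 0.94, 0.97 and 0.59 (adjusted p = 0.0351, 0.0453 and 0.0472).

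Of 11 genes that break down or modify jasmonates 5 were tested and 3 passed in edgeR, all higher in number 3: ST2A, a sulfotransferase of hydroxy-jasmonate (log2 difference 1.34, adjusted p = 0.0123), ILL6 (1.03, adjusted p = 0.0152) and IAR3 (0.92, adjusted p = 0.0386), amidohydrolases that cleave the isoleucine conjugate. JOX2 and CYP94C1, which oxidise jasmonic acid and its conjugate, did not pass (adjusted p = 0.176 and 0.638), and CYP94C1 had a log2 difference of -0.18 (SE 0.49) between numbers 3 and 2. ST2A had 9.53, 16.1 and 43.7 normalised CPM in WT, against 7.57, 10.9 and 24.3 for cuc2-3 and 8.55, 8.26 and 14.1 for CUC2gm-4. Every genotype had its highest ST2A, ILL6 and IAR3 values in its library numbered 3, as 11.6% of all genes did. PR4 and the chitinase gene PR3, both of the ethylene-jasmonate branch, passed with their highest values in the library numbered 2 of every genotype (adjusted p = 0.00548 and 0.0338). None of 16 other synthesis genes passed in edgeR (3 at an unadjusted p below 0.05) and none of 10 receptor, factor and co-repressor genes did (0 at that level), nor did any of 4 tested wound outputs (1 at that level). Over all genes 4.36% passed and 23.9% had an unadjusted p below 0.05, so 0 calls in lists this small is close to the share of all genes.

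Of these 9 calls, those of ILL6 and PR4 stayed below the threshold in every fit with a library left out, and ST2A missed it without cuc2-3 3 (0.0596). JAZ9 missed it in 4 of 9 such fits (adjusted p up to 0.0810, without WT 3), JAZ3 in 5 (up to 0.146, without CUC2gm-4 1), IAR3 in 6 (up to 0.169, without WT 3), PR3 in 6 (up to 0.132, without cuc2-3 2), JAZ6 in 7 (up to 0.163, without CUC2gm-4 1) and JAZ12 in 8 (up to 0.224, without WT 3).

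Other measures moved with the replicate numbers. The clock index, the mean log2 CPM of the morning genes CCA1 and LHY minus that of the evening genes TOC1 and GI, was -3.85, -2.83 and -2.29 in the libraries numbered 3 and between -6.57 and -4.56 in the other 6. The summed level of 12 touch and immediate early genes was 191 to 271 normalised CPM in number 3, 237 to 659 in number 1 and 645 to 831 in number 2. Of these 12 genes 6 passed by number in edgeR, where 4.36% of all genes did, all lower in number 3 than in the mean of the others. An unadjusted p below 0.05 was reached by 10, against 23.9% of all genes, with 9 lower and 1 higher in number 3. Of 8 salicylic acid genes 4 passed (4.36% of all genes did), PR1, PR2, NIMIN1 and WRKY70. The sum over all 8 was highest in number 2 (181 to 262 against 103 to 173 in the others). The part of these measures in the jasmonate differences was not tested.

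**Figure D3:**
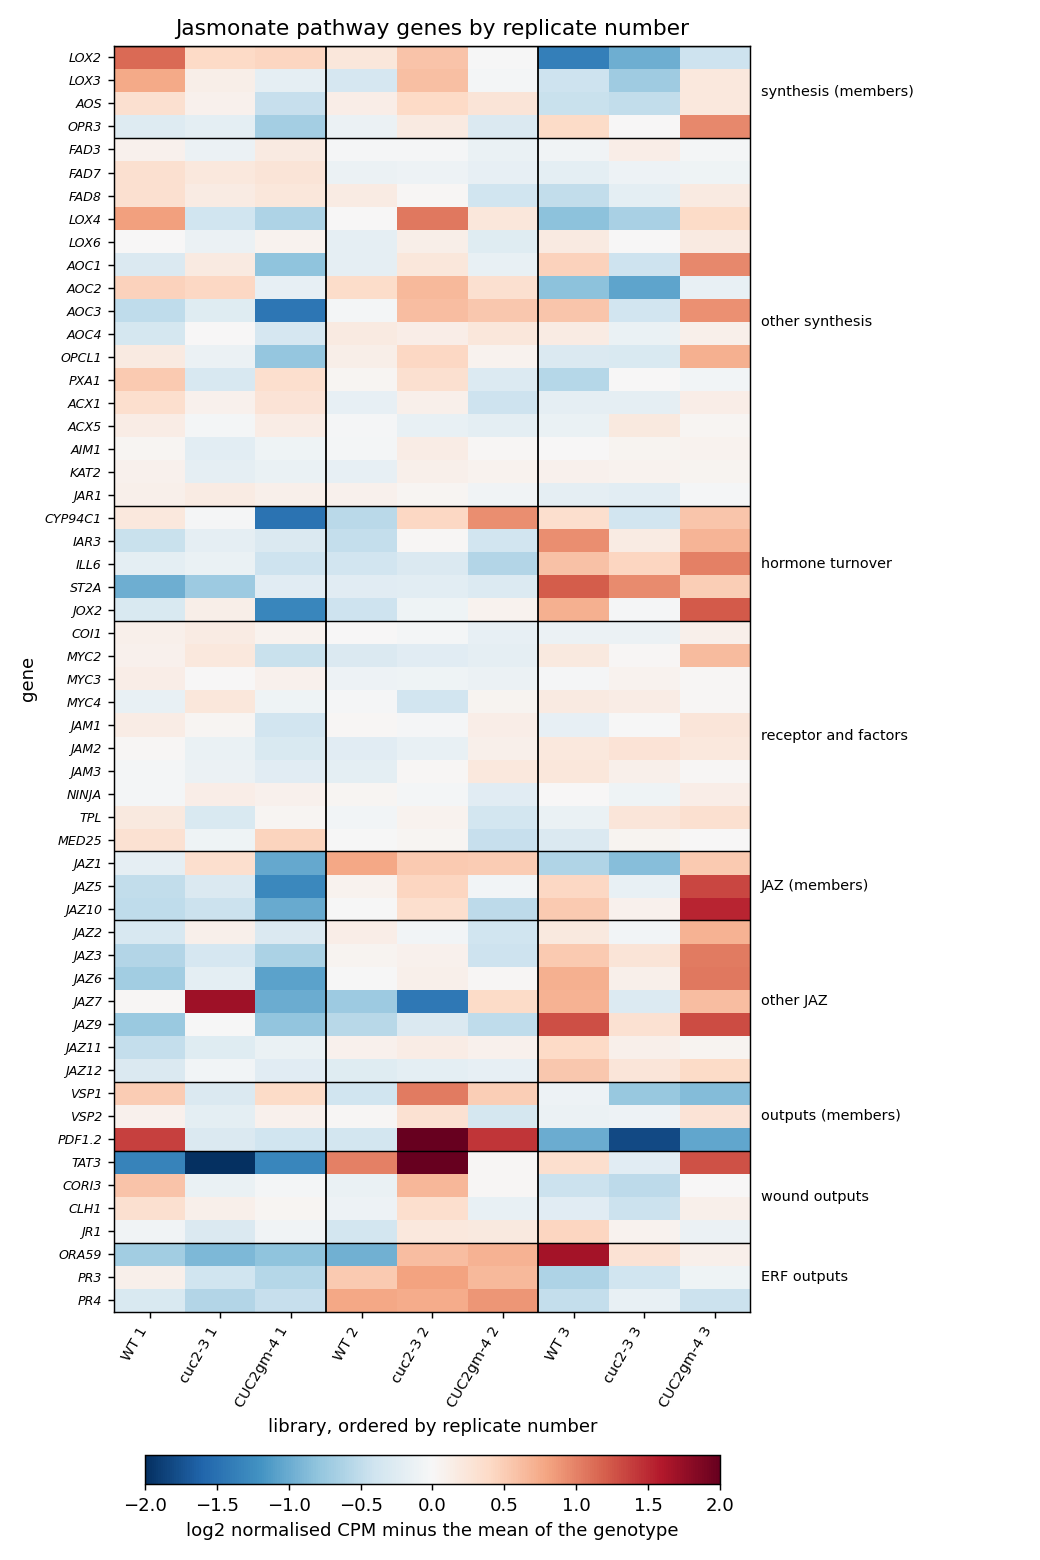
Log2 normalised CPM minus the mean of the genotype (colour, red above and blue below, with the scale ending at 2 in either direction) for the 10 members and the 45 other tested pathway genes in rows, in the 9 libraries ordered by replicate number. LOX2 is blue and the JAZ and hormone turnover rows are mostly red in the libraries numbered 3, while PR4 and PR3 are red in those numbered 2.

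OPR3, JAZ5 and JAZ10 were high and low in the same libraries, and so to a lesser degree were AOS and JAZ1. Of 45 pairs, 4 passed Benjamini-Hochberg adjustment of a 2-sided exact permutation test of Pearson's r on log2 normalised CPM. OPR3 and JAZ10 had r = 0.974 (exact p = 8.3e-06, adjusted 3.7e-04) and rho = 0.983 (exact p = 5.0e-05, adjusted 0.00223). OPR3 and JAZ5 had r = 0.935 (exact p = 6.2e-04, adjusted 0.0136) and rho = 0.95 (exact p = 3.5e-04, adjusted 0.00529). JAZ5 and JAZ10 had r = 0.907 (exact p = 9.0e-04, adjusted 0.0136) and rho = 0.967 (exact p = 1.7e-04, adjusted 0.00372). Leaving out the 2 libraries farthest from the median of the first gene left r at 0.952, 0.795 and 0.861. After the means of genotype and of number were both subtracted, r was 0.983, 0.982 and 0.942. Few independent values remain after that step, and a high r after it is not particular to these pairs. Among pairs that did not pass, JAZ1 and JAZ5 went from 0.49 to 0.917 and AOS and OPR3 from 0.181 to 0.852. JAZ1 and VSP1 went the other way, from -0.101 to -0.465. How often pairs of other genes reach such an r was not computed. CUC2gm-4 1 was the lowest and CUC2gm-4 3 the highest library for OPR3, JAZ5 and JAZ10. The same held for other pathway genes, among them JAZ3, JAZ6, AOC3, JOX2 and MYC2. It did not hold for all, as JAZ12 and COI1 had other extremes. A number holds 3 libraries, too few for an r of its own, and the permutations ignore the pairing.

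The fourth pair was AOS and JAZ1, with r = 0.856 (exact p = 0.00202, adjusted 0.0228) and rho = 0.817 (exact p = 0.0108, adjusted 0.0969). It rests in part on the 2 libraries farthest from the median of AOS, without which r was 0.587, and it did not pass by rho. After both means were subtracted r was 0.825. AOS and PDF1.2 passed by rho and not by r, with rho = 0.883 (exact p = 0.00308, adjusted 0.0346) and r = 0.755 (exact p = 0.0204, adjusted 0.131), and r was 0.719 without the 2 farthest libraries and 0.585 after both means were subtracted. VSP1 and PDF1.2 had r = 0.794 (exact p = 0.0148, adjusted 0.131) and rho = 0.75 (exact p = 0.0255, adjusted 0.127), which does not pass, and r was 0.651 without the 2 farthest libraries and 0.785 after both means were subtracted. Both were highest in cuc2-3 2 and lowest in cuc2-3 3. LOX2 and LOX3 had r = 0.718 (exact p = 0.0323, adjusted 0.166) and rho = 0.8 (exact p = 0.0138, adjusted 0.104), which does not pass. VSP1 and VSP2 had r = 0.277 (exact p = 0.459, adjusted 0.737) and rho = 0.15 (exact p = 0.708, adjusted 0.993). LOX2 and OPR3, which act in the same pathway, had r = -0.486 (exact p = 0.183, adjusted 0.549) and rho = -0.4 (exact p = 0.291, adjusted 0.655) over the 9 libraries, and r = 0.633 after both means were subtracted.

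**Figure D4:**
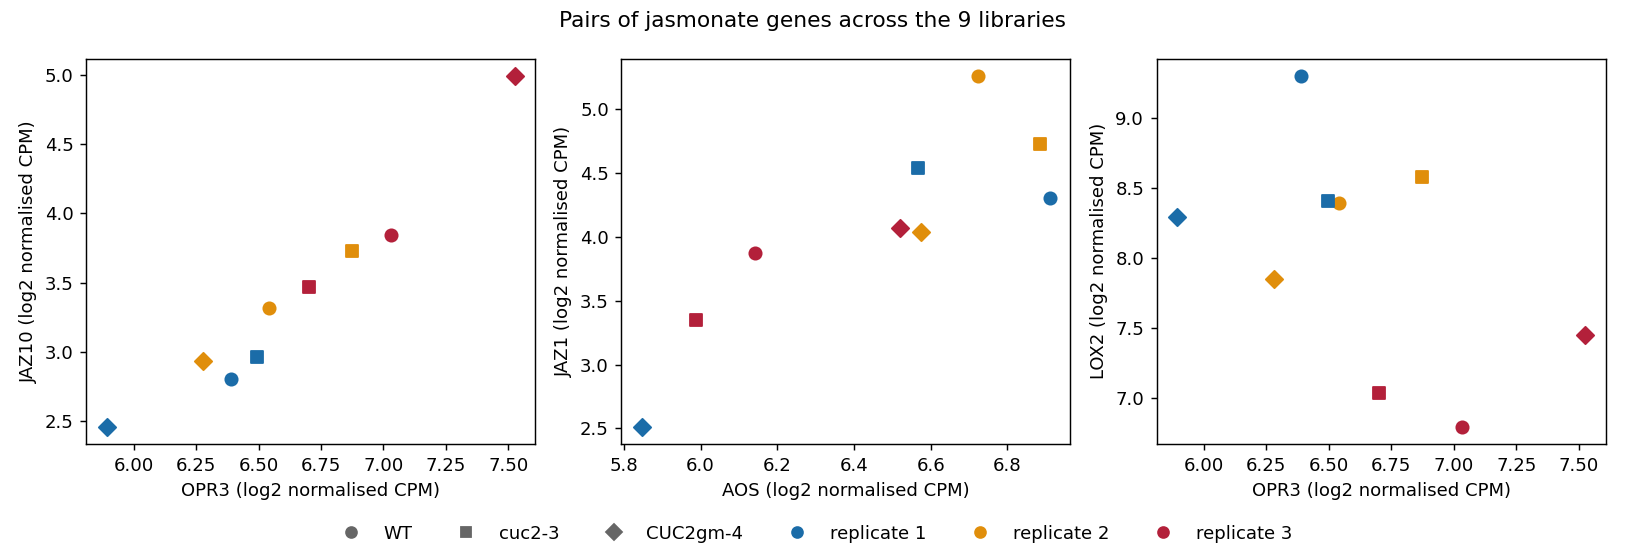
Log2 normalised CPM of JAZ10 against OPR3, of JAZ1 against AOS and of LOX2 against OPR3, a point per library with the shape for genotype and the colour for replicate number. JAZ10 is higher where OPR3 is higher over the 9 libraries (r = 0.974), whereas LOX2 and OPR3 have r = -0.486, with the 3 red points of replicate 3 lowest for LOX2.

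By a rule on the mean standardised level of the 10 genes over the 9 libraries, the tested genes outside the lists most like it were ENODL17 (r = 0.925), AT5G36160 (0.911), CAX2 (0.905), AT5G60270 (0.902) and AT3G11420 (0.888). They are the top of 18291 tested genes, so these values describe likeness and carry no p. The mean itself spanned -0.815 (cuc2-3 3) to 0.883 (cuc2-3 2) and mixes genes that moved in opposite directions.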

How the data were processed

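The deposited tables hold whole-number read counts per gene model, 1 table per library, made by the authors with sam2pkm per the file headers, with reads of equal best placements removed (1.92% to 2.61% of mapped reads). Per the submitters' processing notes the build was TAIR10. Per the labels' protocols messenger RNA was made into stranded single-end Ion Torrent Proton libraries sized at 230 bp. The aligner and the strand setting were not given in the sources used here. The authors' tables also give a model length, used for CPM per kb.

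Genes with at least 1 CPM in at least 3 libraries (18291) were fitted in edgeR 4.0.16 (R 4.3.3) with TMM factors and genotype as the single factor over all 9 libraries. Normalised CPM use the TMM factors, log2 values a prior count of 2, and the threshold was an adjusted p of 0.05 over all genes tested. The SE is the size of the log2 fold change divided by the square root of F. A second model with genotype and replicate number tested the number and served as the block. After genotype means were subtracted, same-numbered libraries correlated with r from 0.198 to 0.586 in 9 of 9 pairs and others from -0.477 to 0.188, so the numbers were taken as pairing them. The deviations of a genotype sum to 0, so positive values in same-numbered pairs push the others below 0, and the contrast is partly built in. The ranges almost meet, at 0.198 for WT 1 with cuc2-3 1 and 0.188 for WT 1 with cuc2-3 2. DESeq2 1.42.0 was an alternative. The procedure was tested on simulated counts. Those for the genotype comparisons held no effect of the replicate number, so they do not show how these comparisons behave where libraries differ by number.

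The members, lists, motifs and tests were chosen with earlier results of these data known. Named were all members, other pathway genes that passed, MYC2, COI1, JAR1 and the PDF copies. All 64 list identifiers were in the tables, and 5 symbols (JOX1 to JOX4 and JAZ13) were not listed in the reference. No protein sequences were used. Floors of small counts cover counting error only.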

Additional observations from a re-analysis of the deposited data

How the results depend on the processing

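In the genotype comparisons 0 of 10 members passed under every alternative run: the replicate block, DESeq2, DESeq2-type size factors in edgeR, library totals, no count minimum, the clock index as a covariate, and each library left out in turn. Signs turned with the replicate block, OPR3 to -0.047 in CUC2gm-4 against WT and OPR3 to -0.11 in CUC2gm-4 against cuc2-3. Signs turned with library totals, JAZ5 to 0.0036 in CUC2gm-4 against cuc2-3. Signs turned with no count minimum, OPR3 to -0.0057 in cuc2-3 against WT. Signs turned with the clock index as a covariate, OPR3 to -0.046, JAZ10 to -0.022, VSP1 to 0.021 in cuc2-3 against WT and OPR3 to -0.16, JAZ5 to -0.022 in CUC2gm-4 against WT and OPR3 to -0.11 in CUC2gm-4 against cuc2-3. With single libraries left out, the ranges that crossed 0 were, on the log2 scale, for cuc2-3 against WT LOX2 -0.77 to 0.33, AOS -0.32 to 0.11, OPR3 -0.12 to 0.22, JAZ10 -0.20 to 0.33, VSP1 -0.76 to 0.28, JAZ1 -0.56 to 0.21, PDF1.2 -0.69 to 0.41, LOX3 -0.11 to 0.69, and for CUC2gm-4 against WT LOX2 -1.01 to 0.086, LOX3 -0.46 to 0.22, OPR3 -0.58 to 0.35, JAZ5 -0.63 to 0.74, JAZ10 -0.68 to 0.92, VSP2 -0.077 to 0.22, and for CUC2gm-4 against cuc2-3 OPR3 -0.60 to 0.34, LOX2 -0.59 to 0.027, AOS -0.39 to 0.044, JAZ5 -1.02 to 0.35, JAZ10 -0.71 to 0.89. Among the members and the other pathway genes the block changed no other genotype call than that of PR4. By replicate number the count of 1 member was 2 with library totals, 7 with no count minimum (where 3026 genes were called in place of 797) and 0 to 2 with single libraries left out (0 without WT 3 or CUC2gm-4 1, 2 without WT 2 or CUC2gm-4 3). The cause was not tested. The 9 other pathway genes called by number were 18 with no count minimum and 3 to 10 with single libraries left out, with 3 without WT 3 or CUC2gm-4 1 and 5 without WT 1, WT 2 or CUC2gm-4 2. JAZ12 also lost its call by number in 1 alternative run that kept all 9 libraries. The alternatives for the other pathway genes, and the blocked fits with a library left out, were chosen after seeing the data. Depth limits PDF1.2 and its copies, and 3 libraries per genotype limit the precision of all fold changes.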
